A study of Homo sapiens with 10 samples.

Results

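TRPS1-binding sites that lie far from the gene starts of the study's annotation make up a large share of the TRPS1 cistrome in T47D cells, and these distal sites, their nearest genes and the expression of those genes are described here. Each peak of the deposited list was joined by its name to the study's peak annotation, and a peak was kept when it lay over 50 kb from the nearest TSS (transcription start site) and not inside that gene. Of the 1844 TRPS1 peaks, 532 (28.9%, 95% Wilson interval 26.8 to 31.0) met this rule, and they were assigned to 366 of the 1441 nearest genes. The remaining peaks comprised 514 within 5 kb of a TSS, 342 farther away but inside the nearest gene, 455 between genes at 5 to 50 kb, and 1 without an assigned gene. Intervals of shares cover counting error only.

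T47D is an established luminal breast cancer cell line. ChIP-seq comprised 2 libraries made with TRPS1 antibodies and 2 input libraries, for which 1 peak list was deposited. RNA-seq comprised 2 libraries each of cells harvested 72 h after transfection of a control siRNA, an siRNA against *TRPS1* or one against *CHD4*. All groups were the same cell line, all RNA-seq groups had been transfected, and the 2 knockdowns were compared with the same 2 control libraries. For the *CHD4* knockdown the labels name an siRNA and the sequencing methods an shRNA, and nothing says that replicates came from separate cultures, so that p-values measure only the spread between these libraries.

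TRPS1 is an atypical member of the GATA family of zinc finger proteins. GATA factors recognise short DNA elements with a GATA core, and whereas most of them activate transcription, TRPS1 is known as a repressor. It is abundant in luminal breast epithelium. CHD4 is the ATPase of the NuRD complex, which remodels nucleosomes and removes histone acetylation. Enhancers and silencers can act on a promoter over long distances, so that the gene nearest to a distal site is only a candidate for the gene it acts on.

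The *TRPS1* transcript itself was the nearest gene of 8 of these peaks, and it checks the knockdown as well. It stood at 1423 and 2234 CPM (counts relative to library size, scaled with TMM factors) in the control libraries and at 1147 and 715.8 CPM in the *TRPS1* siRNA libraries. Both knockdown libraries lay below both controls, with a log2 fold change of -0.97 ± 0.39 (SE; unadjusted p = 0.0459), just short of the 2-fold change required for a call. The log2 fold change of *TRPS1* was -1.26 without control siRNA replicate 1. In the *CHD4* siRNA libraries it stood at 2427 and 1573 CPM, overlapping the controls (log2 fold change 0.13 ± 0.40). *CHD4* fell from 295.6 and 281.7 CPM to 94.9 and 53.8 CPM upon silencing *CHD4* (log2 fold change -1.96 ± 0.42, unadjusted p = 0.00186), and upon silencing *TRPS1* its log2 fold change was -0.03 ± 0.31.

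The RNA-seq libraries held between 10333138 and 14668358 counts, at which 3 counts, the limit of detection used here, equal 0.195 to 0.283 CPM. Control siRNA replicate 1 stood apart: its correlation with each other library across genes was 0.858 to 0.880, whereas every other library reached 0.966 or more with its closest library. The counts and medians of the nearest genes, and the fold changes of the genes they turn on, are therefore also given without it. Marker levels were scaled over all RNA-seq libraries together, and so differ slightly from the levels of the same genes given below. Of 10 luminal markers, 9 were at 186.7 CPM or more in every library and *TFF1* was at 0.281 to 3.04 CPM. Of 6 basal or mesenchymal markers, the basal keratins *KRT5* and *KRT14* reached at most 0.431 CPM, whereas *ACTA2* was at 13.0 to 28.4 CPM, *EGFR* at 13.4 to 32.2 CPM, *VIM* at 1.13 to 17.0 CPM and *TP63*, itself a nearest gene, at 1.93 to 25.04 CPM. Of 8 fibroblast, leukocyte and endothelial markers, *DCN*, *LUM*, *PTPRC*, *CD3E* and *PECAM1* reached at most 0.281 CPM, *VWF* 1.41 CPM and *CD68* 5.03 CPM, and the collagen gene *COL1A1* was at 59.03 to 153 CPM. The summed level of the luminal list was 12988 and 15729 CPM in the control libraries, against 6752 and 6773 CPM upon silencing *TRPS1* and 5636 and 7880 CPM upon silencing *CHD4*. That of the basal or mesenchymal list was 44.3 and 50.97 CPM, 50.1 and 72.0 CPM, and 53.04 and 80.6 CPM in the same order, and that of the last list 66.95 and 155 CPM, 86.0 and 107.9 CPM, and 64.6 and 93.2 CPM. The part of these lists in the results below was not tested, and in bulk RNA fewer cells of a type and less RNA per cell cannot be told apart.

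Sequence could be read for the few distal peaks that meet the promoter window of a gene in RefSeq (build GRCh38.p14; 250 bases before to 50 bases after the start), since RefSeq lists starts that the study's annotation does not. Of the 532 peaks, 502 lay on chromosomes for which windows were used, and 13 of these met such a window, with 3170 bases in common. The genes at these windows were 11 lncRNAs and 2 protein-coding genes, *RUNX1* and *MECOM*, both transcription factors known from blood cells. The part of the peak inside the window is given 5′ to 3′ on the strand of the RefSeq gene. Shown are the 3 peaks that a window covers whole, 4 of the other peaks with a GATA element, and *RUNX1*, which lacked the element. Capitals mark matches to the GATA element WGATAR, where the first letter is A or T and the last A or G, searched on both strands. Matches to the other strand stand as their reverse complement, and overlapping matches run together.
LINC03154, chr1:8259178-8259387, plus strand: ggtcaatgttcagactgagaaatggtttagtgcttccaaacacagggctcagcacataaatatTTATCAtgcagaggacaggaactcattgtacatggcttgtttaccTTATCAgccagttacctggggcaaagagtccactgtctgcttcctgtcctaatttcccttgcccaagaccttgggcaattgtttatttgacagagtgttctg
LINC02707, chr11:34570691-34570908, plus strand: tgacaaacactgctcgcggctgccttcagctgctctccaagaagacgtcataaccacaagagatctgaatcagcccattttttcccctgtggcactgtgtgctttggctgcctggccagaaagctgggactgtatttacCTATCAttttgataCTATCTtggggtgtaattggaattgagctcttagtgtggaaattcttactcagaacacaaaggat
LOC124902923, chr12:46494425-46494710, minus strand: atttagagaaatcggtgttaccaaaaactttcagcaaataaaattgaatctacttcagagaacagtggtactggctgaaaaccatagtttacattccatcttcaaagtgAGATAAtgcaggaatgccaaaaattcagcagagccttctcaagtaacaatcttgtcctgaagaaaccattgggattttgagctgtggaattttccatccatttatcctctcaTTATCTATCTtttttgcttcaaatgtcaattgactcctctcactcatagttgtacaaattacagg
LINC02518, chr6:113433398-113433697, minus strand: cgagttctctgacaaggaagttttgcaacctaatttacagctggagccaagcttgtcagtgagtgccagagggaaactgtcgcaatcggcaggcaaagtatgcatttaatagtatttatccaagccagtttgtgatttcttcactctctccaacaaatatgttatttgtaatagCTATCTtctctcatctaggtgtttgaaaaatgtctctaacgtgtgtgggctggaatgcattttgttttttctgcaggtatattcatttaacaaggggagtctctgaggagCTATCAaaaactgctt
MECOM, chr3:169147422-169147569, minus strand: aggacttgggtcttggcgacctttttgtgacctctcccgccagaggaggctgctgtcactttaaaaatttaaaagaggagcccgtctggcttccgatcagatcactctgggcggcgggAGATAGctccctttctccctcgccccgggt
LOC124903738, chr16:85462619-85462749, minus strand: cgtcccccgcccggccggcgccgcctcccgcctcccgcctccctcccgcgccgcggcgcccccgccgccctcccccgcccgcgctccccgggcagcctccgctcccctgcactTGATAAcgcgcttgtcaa
LOC124905244, chrX:10900716-10900961, plus strand: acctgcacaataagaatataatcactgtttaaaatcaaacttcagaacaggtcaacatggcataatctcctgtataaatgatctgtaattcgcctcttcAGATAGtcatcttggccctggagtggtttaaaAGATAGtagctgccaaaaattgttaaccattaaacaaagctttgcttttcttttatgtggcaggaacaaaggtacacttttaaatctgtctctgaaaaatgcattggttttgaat
RUNX1, chr21:34888650-34888949, minus strand: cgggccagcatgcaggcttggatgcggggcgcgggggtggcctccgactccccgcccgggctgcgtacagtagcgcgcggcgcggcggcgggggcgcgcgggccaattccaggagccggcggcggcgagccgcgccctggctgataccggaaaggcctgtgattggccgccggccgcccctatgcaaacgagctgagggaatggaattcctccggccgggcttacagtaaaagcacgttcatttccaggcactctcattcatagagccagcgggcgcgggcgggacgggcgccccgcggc

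In the study's annotation these peaks belong to more distant genes. The peak at LINC03154 was assigned to *SLC45A1* at 65.2 kb, that at LINC02707 to *EHF* at 50.4 kb, that at LOC124902923 to *SLC38A2* at 122 kb and that at LINC02518 to *MARCKS* at 424 kb. The peak at the *MECOM* start was assigned to LOC100507661 at 245 kb, that at LOC124903738 to *GSE1* at 149 kb, that at LOC124905244 to *MID1* at 66.9 kb and that at the *RUNX1* start to LINC01426 at 143 kb. A WGATAR match was present in 10 of the 13 windows (76.9%), and in the same number of overlaps with the peak. Among all 35116 RefSeq promoter windows 24.97% held the element, among the 12917 lncRNA windows 33.5%, and among the 356 windows met by the other TRPS1 peaks 44.9%. The longer element AGATAAG was in 0 of the 13 windows, compared with 2.68% of all windows and 7.87% of those met by other peaks. Median GC content was 48.3% in the 13 windows, 58.7% in all windows and 62.3% in those met by other peaks, and the part of base composition in these shares was not tested. These 13 peaks are not a random sample of the 532, so that the counts describe these windows alone.

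The check of the term intergenic against RefSeq gave a mixed answer. Of the 532 peaks, 254 (47.7%, 43.5 to 52.0) overlapped the body of some RefSeq gene, 131 of them (24.6% of the 532) a protein-coding one, and 17 the body of the assigned gene itself. In the class at 5 to 50 kb the share was alike, with 215 of 455 peaks (47.3%) in a gene body. The 131 peaks lay in 98 protein-coding genes. The most frequent of these hosts were *GSE1* with 9 peaks, *AFF3* with 7, which the annotation assigned to *REV1*, *TPRG1* with 4 and *DSCAM* and *GHR* with 3 each. *AFF3* encodes a nuclear protein of the AF4 family, *GHR* the growth hormone receptor and *DSCAM* an adhesion molecule of neurons. *ERBB4*, a receptor of the EGF receptor family, held 2 peaks that were assigned to CPS1-IT1. On the chromosomes for which RefSeq starts were used (502 of the peaks), 197 peaks had a RefSeq start within 50 kb, 45 within 5 kb and 11 inside the peak. Of the 502, 184 (36.7%, 32.6 to 41.0) were in no RefSeq gene body and over 50 kb from any RefSeq start used. The peaks are therefore called distal below, by the study's annotation.

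Distal peaks were spread over a wide range of distances. The median distance was 135 kb, with quartiles at 77.4 and 249 kb and extremes of 50.1 and 1090 kb. There were 203 peaks at 50 to 100 kb, 158 at 100 to 200 kb, 127 at 200 to 500 kb, 39 at 500 to 1000 kb and 5 beyond 1000 kb. Just inside the threshold were the peaks of *PPP1R2* (50105 bp), *CYP24A1* (50169 bp) and *ZC2HC1A* (50320 bp), and just outside it those of *COL6A2* (49885 bp), *MRPS23* (49677 bp) and *C9orf62* (49398 bp).

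**Figure D1:**
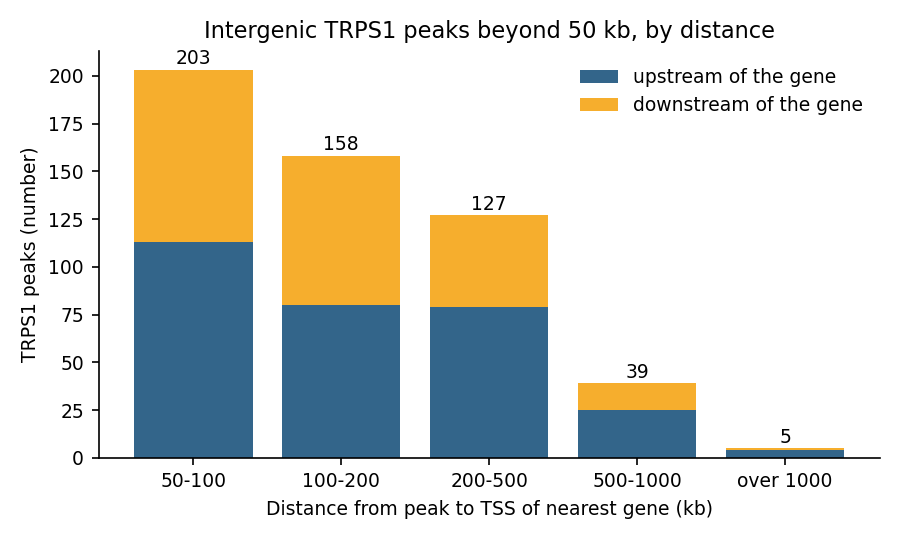
Number of distal TRPS1 peaks (vertical axis) by distance in kb to the TSS of the nearest gene (horizontal axis, unequal bins), split into peaks upstream and downstream of the gene. The 203 peaks at 50 to 100 kb form the tallest bar, and 5 peaks lie beyond 1000 kb.

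The 5 farthest peaks had no gene start of the study's annotation within 1 Mb. They were a pair of peaks upstream of *RAG2*, which encodes a recombinase subunit of lymphocytes (1089 and 1090 kb; chr11:37687230-37687500 and chr11:37688477-37688683), 1 peak downstream of *TRPS1* (1083 kb), 1 upstream of *SPRY2*, an inhibitor of receptor tyrosine kinase signalling (1053 kb; chr13:81393532-81393738), and 1 upstream of *LRRTM3*, a synaptic adhesion protein (1035 kb; chr10:65891066-65891315). RefSeq lists nearer starts: the peak assigned to *LRRTM3* lay 189 bp from that of LOC105378339. The peak assigned to *SPRY2* lay 77.1 kb from a RefSeq start, and the *RAG2* pair 251 and 250 kb. *RAG2* was at 0 and 1 counts in the controls, and *LRRTM3* at 0 in both. *SPRY2*, at 7.001 and 7.13 CPM in the controls, was at 6.23 and 4.17 CPM upon silencing *TRPS1*.

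Upstream and downstream positions were closer to balance than in nearer peaks: 301 of 532 (56.6%, 52.3 to 60.7) lay upstream of the assigned gene, compared with 325 of 455 (71.4%, 67.1 to 75.4) at 5 to 50 kb. Distance runs from the TSS and peaks inside the gene are set apart, so a downstream peak enters a class only when the gene ends before it. The part of this rule in the shares was not tested. The median peak width was 294.5 bp (quartiles 242 and 377.5 bp) against medians of 276 to 293 bp in the other 3 classes. The widest distal peak measured 1745 bp. Chromosome 3 carried most distal peaks (52), followed by chromosomes 10 (48) and 2 (42). As a share of all peaks of a chromosome, they were highest on chromosome 13 with 56.0% (14 of 25) and chromosome 18 with 9 of 18, and lowest on chromosome 19 with 1.41% (1 of 71) and chromosome 22 with 0 of 20, chromosomes with few peaks among them and unplaced contigs left aside.

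Distal peaks occurred in groups. Of the 532 peaks, 206 (38.7%, 34.7 to 42.9) had another distal peak within 50 kb. Measured in the same way among themselves, the share was 14.01% of the peaks within 5 kb of a TSS, 20.2% of those distal inside a gene and 26.2% of those at 5 to 50 kb. Peaks of 1 locus are not independent of each other, and no test was made of these shares. In all, 29 groups of at least 3 peaks held 114 peaks, 46 groups were pairs, and 326 peaks stood alone.

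**Figure D2:**
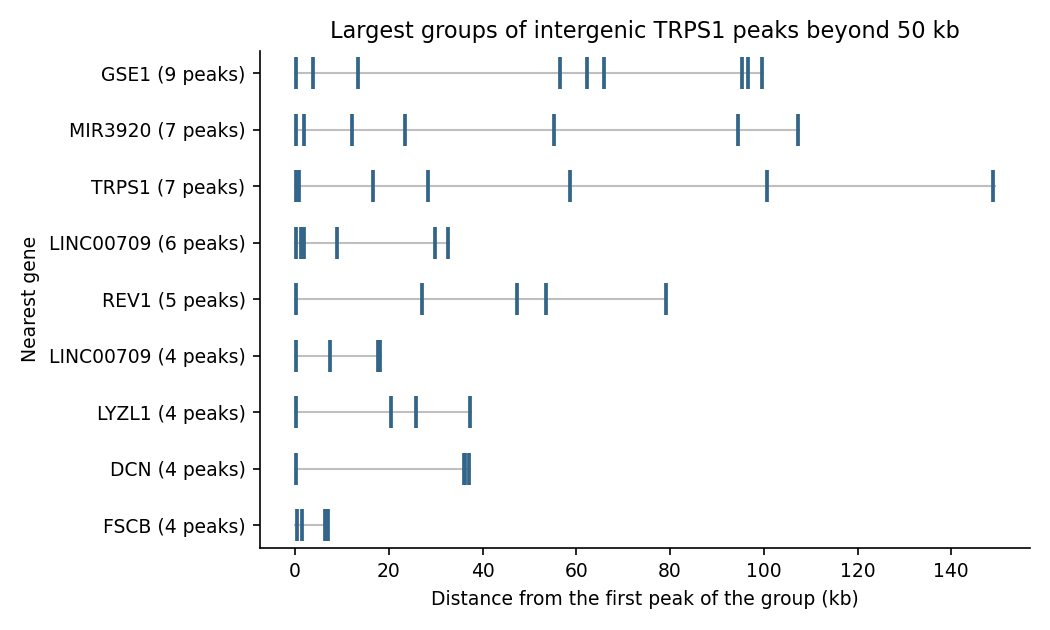
Position of each peak (tick) in the 9 largest groups of distal TRPS1 peaks, as distance in kb from the first peak of the group (horizontal axis), with the nearest gene and the number of peaks at the left. The *GSE1* group holds 9 peaks within 99.7 kb, the *TRPS1* group 7 within 149 kb.

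The group with the most peaks lay upstream of *GSE1*, which encodes a coiled-coil protein found in corepressor complexes. Its 9 peaks occupied 99.7 kb (chr16:85458766-85558492) at 53.2 to 153 kb from the TSS of the study's annotation, and all 9 lay within the body of *GSE1* as RefSeq draws it. Upstream of *TRPS1* itself, 7 peaks formed a group of 149 kb at 170 to 318 kb from its TSS, and 1 more peak lay downstream. LINC00709 had the highest number of peaks of any nearest gene, 11, all upstream at 69.5 to 324 kb, of which 6 formed a group of 32.7 kb (chr10:9036698-9069432) and 4 a group of 18.3 kb (chr10:9188120-9206432). The miRNA gene *MIR3920* had 7 peaks within 107.6 kb (chr11:101334634-101442215). *EDN1*, which encodes the vasoactive peptide endothelin-1, had 7 peaks downstream at 53.3 to 202 kb, in 2 groups of 3 (chr6:12410971-12417482 and chr6:12484515-12492723) and 1 alone. The densest of the larger groups were 4 peaks within 3.84 kb upstream of the potassium channel gene *KCNH8* (chr3:18840612-18844449) and 4 peaks within 5.62 kb near the pseudogene *TEKT4P2* (chr21:8994305-8999920), where near-identical copies make the placing of reads uncertain. Other groups of 3 lay near *PRLR*, the prolactin receptor (chr5:35306586-35358369), *IRX3*, a homeobox factor (chr16:54424153-54426801), and DSCAM-AS1, an lncRNA of luminal breast cancer cells (chr21:40318652-40324763).

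By RefSeq biotype the 366 nearest genes were 234 protein-coding genes, 78 lncRNAs, 33 miRNAs and 17 pseudogenes, and 4 had no match. A single distal peak was assigned to 286 of them, 2 peaks to 42, 3 to 17 and 4 or more to 21, and 313 genes had no peak of another class. Counting 1 more gene that is a miRNA by its name, 34 miRNA genes were nearest to 51 of the distal peaks, and mature sequences from RefSeq (GRCh38.p14) were at hand for 32 of them (MIR4792 and MIR3148 had none). The 3 with the most peaks, miR-944 for its place at the *TP63* locus, miR-148a-3p as a widely expressed member, and the only pair in which the full seed was shared are printed with the seed, bases 2 to 8, in capitals.
hsa-miR-3920: aCUGAUUAucuuaacucucuga
hsa-miR-4268: gGCUCCUCcucucaggaugug
hsa-miR-1261: aUGGAUAAggcuuuggcuu
hsa-miR-944: aAAUUAUUguacaucggaugag
hsa-miR-148a-3p: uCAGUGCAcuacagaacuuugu
hsa-miR-1270: cUGGAGAUauggaagagcugugu
hsa-miR-620: aUGGAGAUagauauagaaau

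Of these, *MIR3920* had 7 peaks at 78.2 to 185 kb, *MIR4268* 6 at 170 to 371 kb, *MIR1261* 3 at 80.1 to 615 kb and *MIR944* 2 at 50.5 and 73.3 kb. *MIR944* is known to lie within *TP63*. *MIR148A* had 1 peak at 103 kb. *MIR1270* and *MIR620*, each with 1 peak, share the seed UGGAGAU although they lie on different chromosomes. None of the 33 miRNA genes passed the filter on low counts in either comparison, and RNA-seq of this kind is not designed to measure mature miRNAs.

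The question put to the RNA-seq data was how the nearest genes behaved when *TRPS1* or *CHD4* was silenced. Of the 366, 269 were in the table of the *TRPS1* comparison, and 182 (49.7%) passed the filter of over 2 CPM in at least 2 libraries and were tested. The tested share was 58.2% for the nearest genes of peaks at 5 to 50 kb, 80.3% for those of peaks inside a gene and 85.5% for those within 5 kb. In the *CHD4* comparison 268 were in the table and 184 were tested, and 88 were in neither table. Protein-coding genes passed most often (167 of 234 in the *TRPS1* comparison), lncRNAs rarely (9 of 78). The remaining nearest genes were too low for a comparison at this depth or not in the table. Genes below 2 CPM in both controls were tested only through the knockdown libraries, and could be called as rising but not as falling. The reverse holds for genes below it in both knockdown libraries.

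Genes were called when they changed more than 2-fold with an unadjusted p below 0.05. *TRPS1*, the target of its siRNA, is among the tested nearest genes, and with all libraries it fell just short of a call. Upon silencing *TRPS1*, 15 of the 182 tested genes rose (8.24%) and 9 fell (4.95%), against a background of 2.7% and 3.17% of the 12921 genes tested. Upon silencing *CHD4*, 12 of 184 rose (6.52%) and 12 fell (6.52%), against a background of 2.6% and 2.85% of 12918 genes. In the 2 comparisons, which share their controls, 8 genes rose both times, 5 fell both times and 0 were called in opposite directions, among 178 nearest genes tested in both (4.49%, 2.81% and 0%). Over the 12692 genes tested in both, the background was 0.914% higher both times, 1.19% lower both times and 0 in opposite directions. No gene passed a Benjamini-Hochberg adjusted p of 0.05 in edgeR's quasi-likelihood test: the smallest adjusted p among nearest genes was 0.659 upon silencing *TRPS1* and 0.749 upon silencing *CHD4*, whereas 27 and 24 nearest genes had an unadjusted p under 0.05 (background 6.98% and 5.95% of all genes). DESeq2 gave 1 and 4 nearest genes at an adjusted p under 0.05, and the quasi-likelihood test without the filter on low counts gave 0 and 6. The counts depended on single libraries: leaving out each in turn gave 1 to 64 genes that rose and 3 to 14 that fell upon silencing *TRPS1*, and 3 to 55 and 2 to 16 upon silencing *CHD4*. The background moved with them. Without control siRNA replicate 2, where 64 and 55 nearest genes rose, 19.2% and 17.5% of all genes rose in the 2 comparisons. Without *TRPS1* siRNA replicate 1, 1 nearest gene rose beside 0.364% of all genes, and without *CHD4* siRNA replicate 1, 3 rose beside 0.503%.

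Without control siRNA replicate 1, 15 of 182 nearest genes rose (8.24%) and 9 fell (4.95%) upon silencing *TRPS1*, against a background of 5.48% and 2.52%. With all libraries that background was 2.7% and 3.17%, so the share that rose came nearer to its background and the share that fell moved farther from it. The genes that fell then include *TRPS1*, the target of the siRNA, at a log2 fold change of -1.26. Upon silencing *CHD4*, 15 of 184 rose (8.15%) and 9 fell (4.89%), against a background of 5.47% and 2.15%. Of the calls made with all libraries, 12 of the 15 and 7 of the 9 remained upon silencing *TRPS1*, and 9 of 12 and 8 of 12 upon silencing *CHD4*. Most of those lost missed the 2-fold change rather than the p: upon silencing *TRPS1*, *ABCA12* was at a log2 fold change of 0.98, *VCAN* at 0.99, *ROBO2* at 0.84 (unadjusted p = 0.0102) and *PTPN1* at -0.87 (unadjusted p = 0.00144). Upon silencing *CHD4*, *PKHD1* was at 0.99, *TULP4* at 0.87, *ABCA12* at 0.71, *PHACTR1* at -0.97, DSCAM-AS1 at -0.96 and *MSX2* at -0.87, all with an unadjusted p under 0.05. *INCENP* missed both criteria in both comparisons, at -0.63 and -0.82 (unadjusted p = 0.0702 and 0.0712).

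The nearest genes of the other classes of peaks gave the following shares. Among nearest genes of peaks at 5 to 50 kb, 21 of 231 (9.09%) rose and 18 (7.79%) fell upon silencing *TRPS1*, and 8 of 233 (3.43%) rose and 18 (7.73%) fell upon silencing *CHD4*. Among those of peaks within 5 kb of a TSS, 13 of 426 (3.05%) rose and 18 (4.23%) fell upon silencing *TRPS1*, and 11 of 425 (2.59%) rose and 20 (4.71%) fell upon silencing *CHD4*. Among those of distal peaks inside the nearest gene, 15 of 232 (6.47%) rose and 6 (2.59%) fell upon silencing *TRPS1*, and 10 of 230 (4.35%) rose and 10 (4.35%) fell upon silencing *CHD4*. The share that rose upon silencing *CHD4* was thus lower in all 3 classes than the 6.52% of the distal intergenic class, whereas upon silencing *TRPS1* the class at 5 to 50 kb had the higher share. The 3 classes, in the same order, had without control siRNA replicate 1 8.23%, 5.87% and 4.74% that rose upon silencing *TRPS1* and 5.15%, 3.29% and 4.78% upon silencing *CHD4*. The classes share genes: 53 of the 366 nearest genes of distal peaks also had peaks of another class. Among the genes called in either comparison, these were *NAALADL2*, *ARRDC3*, *ABCA12*, *MAP6D1*, *FAT1*, *VCAN*, *ROBO2*, *MVB12B*, DSCAM-AS1, *PHACTR1* and *PPP1R2*. The differences between classes were not tested.

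The tested nearest genes as a body were shifted upwards. Their median log2 fold change was 0.28 upon silencing *TRPS1* (quartiles -0.17 and 0.71), beside -0.02 over all tested genes (quartiles -0.44 and 0.41), and 0.12 upon silencing *CHD4*, beside -0.02. Both knockdown libraries lay above both controls in 71 genes (39.0%, background 22.8%) and below both in 32 (17.6%, background 21.3%) upon silencing *TRPS1*; upon silencing *CHD4* the numbers were 54 (29.3%, background 20.1%) and 34 (18.5%, background 19.7%). The shift leaned on 1 library: without control siRNA replicate 1 the median was 0.06 (all genes 0.02) upon silencing *TRPS1* and -0.08 (all genes 0.01) upon silencing *CHD4*, and without control siRNA replicate 2 it was 0.58 and 0.50 (all genes 0.03 and 0.04).

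**Figure D3:**
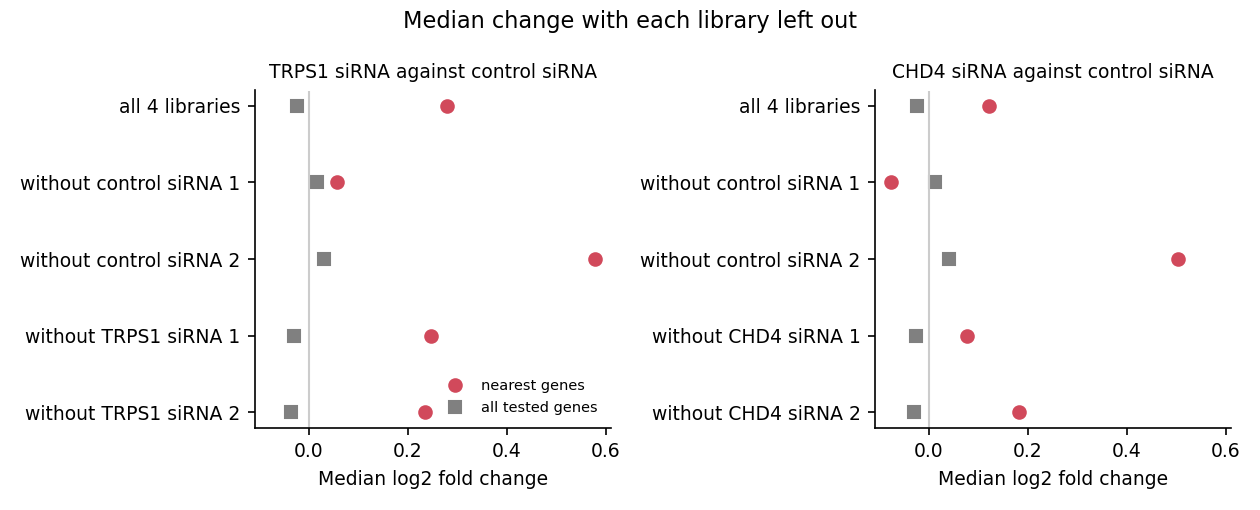
Median log2 fold change (horizontal axis) of the tested nearest genes of distal peaks (circles) and of all tested genes (squares) with all 4 libraries and with each library left out, for each knockdown against control siRNA. The nearest genes stand at 0.28 and 0.12 with all libraries, and at 0.06 and -0.08 without control siRNA replicate 1.

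Gene length moved with the same shift. The tested nearest genes had a median RefSeq length of 71.1 kb in the *TRPS1* comparison (173 with a length), against 29.8 kb over all tested genes. Genes longer than this median that were no nearest gene had a median log2 fold change of 0.16, and shorter ones -0.11; the nearest genes stood at 0.41 above that length and at 0.12 up to it. Upon silencing *CHD4* the same medians were 0.15 and -0.09 for other genes and 0.17 and 0.01 for nearest genes. The part of length in the shift was not tested.

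Among the 8 genes that rose in both comparisons was *TP63*, which encodes p63, a transcription factor of basal epithelial cells. The 1 distal peak assigned to it lay 173 kb upstream (chr3:189458544-189458907). The 2 distal peaks assigned to *MIR944* (chr3:189756654-189756992 and chr3:189779407-189779693) lay in the RefSeq body of *TP63*, 125 and 148 kb from the *TP63* start used here. The study describes another promoter of *TP63*, where it reports TRPS1 enrichment, and the distance to that promoter was not measured. It also reports TRPS1 enrichment at a region upstream of the first promoter, which it proposes as an enhancer because of its H3K27ac. The study tested this region by ChIP-qPCR and in a luciferase reporter. Whether the distal peak 173 kb upstream is the same region was not examined here. *TP63* was at 1.95 and 1.86 CPM in the controls, at 13.96 and 5.73 CPM upon silencing *TRPS1* and at 24.7 and 7.31 CPM upon silencing *CHD4*. Both controls were under the 2 CPM of the filter, which *TP63* passed only through the knockdown libraries. All 4 knockdown libraries were above both controls, with log2 fold changes of 2.36 ± 0.65 (unadjusted p = 0.00953) and 3.06 ± 0.72 (unadjusted p = 0.00318). These were 2.38 and 3.10 without control siRNA replicate 1.

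*NAALADL2*, which encodes a glutamate carboxypeptidase-like membrane protein, had 3 distal peaks at 379, 421 and 504 kb upstream (chr3:174480697-174481382, chr3:174438569-174438895 and chr3:174355505-174355824), the first of which RefSeq places in the gene body. Over all classes of peaks the gene had 6. It rose from 17.8 and 40.9 CPM in the controls to 201 and 149.8 CPM upon silencing *TRPS1* and 176 and 106 CPM upon silencing *CHD4*. The groups were well apart, with log2 fold changes of 2.58 ± 0.50 (unadjusted p = 0.00166) and 2.26 ± 0.53 (unadjusted p = 0.0031). These were 2.1 and 1.8 without control siRNA replicate 1.

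*ARRDC3*, an arrestin-domain protein that promotes the turnover of membrane receptors, had 2 distal peaks at 658 and 736 kb upstream (chr5:92041594-92042217 and chr5:92119176-92119404). Levels were 30.5 and 39.8 CPM in the controls, 107 and 87.3 CPM upon silencing *TRPS1* and 138 and 81.6 CPM upon silencing *CHD4* (log2 fold changes 1.47 ± 0.36 and 1.64 ± 0.43). *ABCA12*, a lipid transporter of the epidermis with a peak at 78.4 kb (chr2:215216834-215217144), was at 107 and 171 CPM, 379.7 and 293 CPM, and 327 and 229 CPM in the same order (1.28 ± 0.38 and 1.00 ± 0.41). For both genes every knockdown library was above every control. Leaving out control siRNA replicate 1, *ARRDC3* was at log2 fold changes of 1.29 and 1.47, and *ABCA12* was at 0.98 and 0.71 and was no longer called. Over all classes of peaks, *ARRDC3* had 3 and *ABCA12* had 2.

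The other 4 genes that rose in both were low in the controls. *SLITRK6*, a neuronal membrane protein with a peak 83.0 kb downstream (chr13:85716383-85716678), had 0 and 7 counts in the controls, 32 and 43 upon silencing *TRPS1* and 178 and 93 upon silencing *CHD4* (log2 fold changes 3.45 ± 1.21 and 5.47 ± 1.18). *NDST4*, a heparan sulfate-modifying enzyme, had 4 peaks within 32.8 kb at 525 to 558 kb upstream (chr4:115639012-115671818) and 2 and 24 counts in the controls, 93 and 96 upon silencing *TRPS1* and 104 and 76 upon silencing *CHD4* (2.95 ± 1.04 and 3.01 ± 1.04). *MARCKS*, a substrate of protein kinase C that binds actin, had 3 peaks at 215 to 424 kb upstream and rose from 10 and 13 counts to 49 and 33, and to 53 and 51 (1.99 ± 0.74 and 2.39 ± 0.73). In *NHLRC1*, which encodes the E3 ligase malin, 24 and 31 counts in the controls compared with 95 and 60, and with 103 and 66 (1.66 ± 0.67 and 1.86 ± 0.66); its peak lay 59.9 kb downstream (chr6:18062696-18062968). *SLITRK6*, *NDST4* and *MARCKS* were under 2 CPM in both controls and passed the filter only through the knockdown libraries. In all 4 genes the control and knockdown groups did not overlap, which choosing genes by their calls favours. All 4 were still called without control siRNA replicate 1, *SLITRK6* at log2 fold changes of 2.46 and 4.50, *NDST4* at 2.06 and 2.13, *MARCKS* at 1.77 and 2.21 and *NHLRC1* at 1.46 and 1.68.

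**Figure D4:**
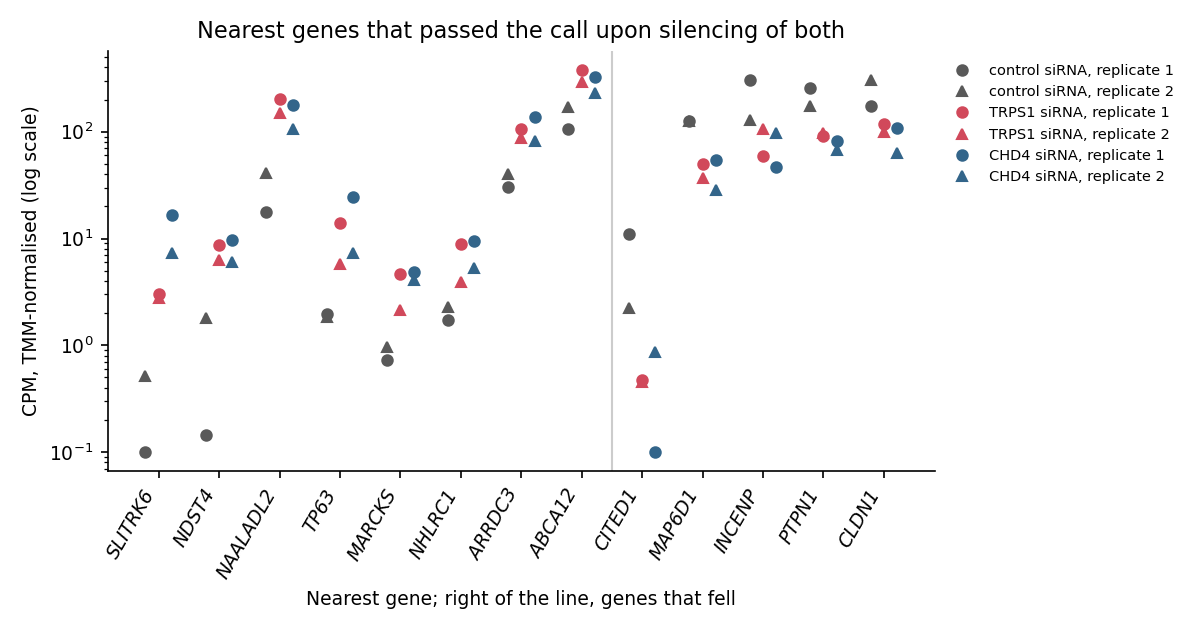
CPM on a log scale (vertical axis) of the 8 nearest genes that rose and the 5 that fell upon silencing of both *TRPS1* and *CHD4*, for each of the 6 libraries (1 point each; values under 0.1 CPM are drawn at 0.1). In each of the 13 genes all 4 knockdown points lie on 1 side of both controls, and the controls of *INCENP* (307 and 129 CPM) and *CITED1* (11.1 and 2.23 CPM) are far apart. The genes were chosen by their calls, which favours such separation. Of all tested genes, 22.8% (*TRPS1*) and 20.1% (*CHD4*) had both knockdown libraries above both controls, and 21.3% and 19.7% below both.

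Among the genes that fell in both, *CITED1*, a transcriptional cofactor, had the largest log2 fold change and the least stable controls. It had 154 and 30 counts in the controls, 5 and 7 upon silencing *TRPS1* and 1 and 11 upon silencing *CHD4* (log2 fold changes -3.82 ± 0.97 and -3.73 ± 1.18), and its peak, 74.8 kb upstream (chrX:72381938-72382252), lay in the body of *HDAC8*. *CITED1* passed the filter only through the controls, so it could not be called as rising. Its changes were -2.25 and -2.12 without control siRNA replicate 1. *CLDN1*, a tight junction protein with a peak 92.3 kb downstream (chr3:190230129-190230354), fell from 174 and 306 CPM to 119 and 98.8 CPM, and to 107.9 and 62.6 CPM (-1.14 ± 0.39 and -1.49 ± 0.46). *PTPN1*, the tyrosine phosphatase PTP1B, had a peak 59.1 kb upstream (chr20:50451258-50451579) and fell from 259 and 173 CPM to 92.1 and 96.7 CPM, and to 81.9 and 67.8 CPM (-1.19 ± 0.35 and -1.53 ± 0.39). *MAP6D1*, a microtubule-binding protein, had nearly equal controls of 125 and 126 CPM and fell to 49.5 and 36.9 CPM, and to 54.6 and 28.2 CPM (-1.54 ± 0.35 and -1.60 ± 0.44). *INCENP*, a subunit of the chromosomal passenger complex, was at 307 and 129 CPM in the controls, 59.6 and 107 CPM upon silencing *TRPS1* and 47.2 and 97.3 CPM upon silencing *CHD4*, and was not called without control siRNA replicate 1 in either comparison. The log2 fold changes without that library were -1.49 and -1.84 for *CLDN1*, -0.87 (no longer called) and -1.20 for *PTPN1* and -1.55 and -1.60 for *MAP6D1*.

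Upon silencing *TRPS1* alone, 7 more genes rose and 4 fell. *SLC5A12*, a lactate transporter with a peak in the body of *ANO3* (chr11:26649867-26650199), went from 0 and 10 counts to 49 and 43 (log2 fold change 3.29 ± 1.27), and upon silencing *CHD4* it had 31 and 37 counts, just outside the threshold (unadjusted p = 0.0504). It passed the filter on low counts only through the knockdown libraries. *FAT1*, an atypical cadherin with 2 peaks at 80.5 and 121 kb upstream, rose from 11.9 and 16.4 CPM to 44.0 and 29.5 CPM (1.37 ± 0.41), and upon silencing *CHD4* it was at 17.2 and 11.4 CPM, on either side of the controls. *NKAIN1*, which interacts with the sodium pump, fell from 32.0 and 17.6 CPM to 5.85 and 6.97 CPM (-1.95 ± 0.47). The MAP kinase phosphatases *DUSP6* and *DUSP5* fell together, *DUSP6* from 79 and 58 counts to 16 and 23 (-1.73 ± 0.60) and *DUSP5* from 251 and 271 counts to 106 and 139 (-1.01 ± 0.39), whereas upon silencing *CHD4* their log2 fold changes were -0.56 ± 0.62 and -0.20 ± 0.42. The others were *TRAF1*, *LRRN1*, *VCAN*, *ROBO2* and *MVB12B*, which rose by log2 fold changes of 1.05 to 1.54, and *ADAMTS15*, which fell by 1.48 on the log2 scale. With control siRNA replicate 1 left out, *SLC5A12* was at 2.29 upon silencing *TRPS1* and at 1.96 (unadjusted p = 0.0134) upon silencing *CHD4*, where it then passed the threshold. *FAT1* was at 1.16, *NKAIN1* at -1.45, *DUSP6* at -1.51 and *DUSP5* at -1.08 upon silencing *TRPS1*. Whether the changes upon silencing *TRPS1* and *CHD4* differ was not tested.

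Upon silencing *CHD4* alone, 4 more genes rose and 7 fell. *DHRS2*, a mitochondrial short-chain dehydrogenase, had the smallest p of the nearest genes in this comparison: it was at 3.39 and 3.49 CPM in the controls and rose to 33.9 and 54.7 CPM upon silencing *CHD4* (log2 fold change 3.68 ± 0.48, unadjusted p = 8.47e-05). In the *TRPS1* siRNA libraries it was at 2.93 and 4.04 CPM, on either side of the controls. Its peak lay 64.4 kb downstream (chr14:23694505-23694769). *PKHD1*, the gene of fibrocystin, rose by a log2 fold change of 1.19 ± 0.43, and LOC100130238 by 2.06 ± 0.87 from 23 and 6 counts to 63 and 38. LOC100130238 passed the filter on low counts only through the *CHD4* siRNA libraries. *TULP4* was the remaining gene that rose, and is named here after its value was seen (1.10). DSCAM-AS1, with its group of 3 peaks in the body of *DSCAM*, fell from 78.7 and 56.9 CPM to 24.0 and 34.0 CPM (-1.22 ± 0.42); upon silencing *TRPS1* it was at 65.9 and 61.3 CPM. Whether reads were counted by strand is not stated, so that reads from this RNA and from *DSCAM* on the opposite strand may not be separable. *VTCN1*, which encodes the T cell inhibitor B7-H4, fell by 1.38 on the log2 scale, and *C15orf41*, *TOB1*, *MSX2*, *PPP1R2* and *PHACTR1* by 1.13 to 1.39. With control siRNA replicate 1 left out, *DHRS2* was at 3.67, LOC100130238 at 3.28 and *VTCN1* at -1.49.

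Of the 21 genes with 4 or more distal peaks, 10 were tested, of which 1, *NDST4*, rose in both comparisons (10.0%, beside 8.24% and 6.52% of all tested nearest genes and the background of 2.7% and 2.6%) and 0 fell. Their median log2 fold changes were -0.20 and -0.04, and -0.18 and -0.14 without control siRNA replicate 1. *TRPS1*, the siRNA target, is among the 10, at -0.97 upon silencing *TRPS1* and at -1.26 without that library. *GSE1* with 9 peaks was at 1293 and 937 CPM in the controls, at 1116 and 822 CPM upon silencing *TRPS1* and at 1234 and 859 CPM upon silencing *CHD4*, and the groups overlapped. *EDN1* with 7 peaks was at 88.4 and 128 CPM, 97.3 and 82.3 CPM, and 98.6 and 60.4 CPM. *REV1*, to which 7 peaks in *AFF3* were assigned, had log2 fold changes of -0.05 ± 0.39 and 0.19 ± 0.42. *IRX3* was lower in both comparisons without passing the test (-0.81 ± 0.49 and -0.94 ± 0.50), its controls being 140.2 and 56.3 CPM, and stood at -0.01 and -0.13 without control siRNA replicate 1. *LURAP1L* was at -0.20 ± 0.35 upon silencing *TRPS1* and at -0.78 ± 0.37 (unadjusted p = 0.0705) upon silencing *CHD4*, where both knockdown libraries (183 and 141 CPM) lay below both controls (239 and 319 CPM). TFAP2A-AS1, at 0.59 ± 0.58 and 0.48 ± 0.65, had its knockdown libraries above both controls in each comparison. *KCTD3* (-0.43 and -0.25) and *TEKT4P2* (0.28 and 0.01) overlapped the controls. The other 11 were not tested: *SLC26A7* reached at most 22 counts, *KCNH8* 9, *SH2D4B* and TPRG1-AS2 2 and *DCN* 1 in any library, and LINC00709, *MIR3920*, *MIR4268*, *FSCB*, *LYZL1* and LOC101928569 were in neither table.

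Grouped by role, the nearest genes moved unevenly. The lists were drawn up from the nearest genes with earlier results of these data known, so that their counts are a description. Of 34 transcription factors and cofactors, 25 were tested upon silencing *TRPS1*, of which *TP63* rose and *CITED1* fell, with a median log2 fold change of -0.20; upon silencing *CHD4*, 27 were tested, *TP63* rose, *CITED1* and *MSX2* fell, and the median was -0.11. Both medians turned to the other side of 0 without control siRNA replicate 1, at 0.05 and 0.04. *TRPS1*, the siRNA target, is on this list and was then at -1.26 upon silencing *TRPS1*. The luminal regulators *GATA3* and *FOXA1* are on this list and were not called in either comparison (*GATA3* -0.48 and -0.88, *FOXA1* -0.25 and 0.21). Without that library *GATA3* was at 0.15 and -0.24 and *FOXA1* at -0.33 and 0.14.

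Of 25 signalling and growth control genes, 20 were tested in each comparison, with medians of -0.08 and -0.15, and of -0.27 and -0.17 without control siRNA replicate 1. Upon silencing *TRPS1*, *ARRDC3* and *TRAF1* rose and *DUSP5*, *DUSP6* and *PTPN1* fell, and upon silencing *CHD4*, *ARRDC3* rose and *PTPN1* and the antiproliferative gene *TOB1* fell. *TOB1* was at 389 and 296 CPM in the controls, 180.2 and 174 CPM upon silencing *TRPS1* (-0.95 ± 0.33, short of a 2-fold change) and 165 and 114 CPM upon silencing *CHD4* (-1.30 ± 0.39).

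Adhesion and guidance genes were the list with the highest median, 1.09 upon silencing *TRPS1* over 10 tested of 17, with -0.02 over all tested genes. In 8 of the 10 both knockdown libraries were above both controls upon silencing *TRPS1*, and in 5 of the 10 upon silencing *CHD4*, beside 39.0% and 29.3% of the tested nearest genes and 22.8% and 20.1% of all genes. *SLITRK6*, *FAT1*, *LRRN1* and the Slit receptor *ROBO2* (1.13 ± 0.41, from 9.82 and 15.5 CPM to 29.2 and 26.4 CPM) rose, and *CLDN1* fell. Without control siRNA replicate 1 the median was 0.64 and *ROBO2* was no longer called. Upon silencing *CHD4* the median was 0.54, with *SLITRK6* up and *CLDN1* down, and 0.25 without that library. Of 8 extracellular matrix genes 5 were tested. The proteoglycan *VCAN* rose upon silencing *TRPS1* from 31.6 and 57.9 CPM to 142 and 87.4 CPM (1.36 ± 0.45), and the protease *ADAMTS15* fell from 224 and 183 CPM to 85.8 and 59.95 CPM (-1.48 ± 0.36). Without control siRNA replicate 1, *VCAN* was at 0.99 and was not called, and the median of the list went from 0.37 to 0.24. Upon silencing *CHD4* none of the 5 was called in either direction, with a median of -0.05 (-0.15 without that library).

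The protein-coding genes whose RefSeq body holds a distal peak were looked at in the same way, since the assigned gene is often another one. Of the 98 host genes, 73 were tested in each comparison. Of these, 6 rose and 0 fell upon silencing *TRPS1* (8.22% higher, median log2 fold change 0.33), and 8 rose and 1 fell upon silencing *CHD4* (11.0% higher, median 0.14), beside the backgrounds given above. These counts partly repeat calls already given, since the hosts *TP63* and *NAALADL2*, and *TULP4* upon silencing *CHD4*, are also nearest genes that rose. Among all tested genes longer than the median nearest gene, 3.86% and 3.80% rose, and the part of gene length was not tested. With control siRNA replicate 1 left out, 8 rose and 1 fell (11.0% higher, median 0.15), and 9 rose and 0 fell (12.3% higher, median 0.09), against 5.48% and 5.47% of all genes that rose.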

How the data were processed

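T47D libraries from ChIP-seq (TRPS1 ChIP and input, 2 of each) and from RNA-seq (control, *TRPS1* and *CHD4* siRNA, 2 of each) were grouped by their labels. The authors aligned ChIP reads with BWA 0.7.12-r1039 and called peaks with MACS2 2.1.1 (hg38 in the submitters' processing notes); whether replicates were pooled is not stated. The deposited list gives positions without scores, and the ChIP depth is unknown. The authors aligned RNA reads with STAR and deposited raw counts per gene symbol from HTSeq 0.9.0.

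Nearest gene, gene strand and position came from the study's peak annotation, and no other value of it was used. Gene bodies, gene lengths, biotypes and promoter windows came from RefSeq GRCh38.p14, regardless of strand. For biotypes, 362 of 366 nearest genes matched by gene identifier, and gene lengths were joined by symbol. Starts on one chromosome were not used here (30 peaks, with unplaced contigs).

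Each knockdown was fitted against control in edgeR 4.0.16 (R 4.3.3; TMM, over 2 CPM in at least 2 of 4 libraries, quasi-likelihood test, prior count 0.125, no covariate). The standard error was taken as the absolute log2 fold change over the root of the F statistic. CPM values of the controls are those of the *TRPS1* fit, except for the marker levels, which were scaled over all RNA-seq libraries together. p-values were adjusted by Benjamini-Hochberg over all tested genes, and calls followed the study's threshold, a fold change over 2 at an unadjusted p under 0.05. The fit was tested on simulated data. Shares have 95% Wilson intervals. Peaks, genes and lists were chosen with earlier results of these data known. Genes were named when they had 4 or more distal peaks, had one of the 5 farthest peaks, were called in both comparisons, were among the 10 largest changes called in 1, were called members of a list, were *TP63*, *ABCA12*, *NHLRC1* or *NAALADL2*, or were a siRNA target. The gene length split, the peak classes and host genes without control siRNA replicate 1 and the background of calls shared by both comparisons were added after seeing the data.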

Additional observations from a re-analysis of the deposited data

How the results depend on the processing

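The counts of called nearest genes (15 higher and 9 lower upon silencing *TRPS1*, 12 and 12 upon silencing *CHD4*) depended most on single libraries. Leaving out each library in turn gave 1 to 64 higher and 3 to 14 lower upon silencing *TRPS1*, and 3 to 55 higher and 2 to 16 lower upon silencing *CHD4*; the extremes of 64 and 55 came without control siRNA replicate 2, when the lone control was replicate 1, and the lone library was assumed to vary like the other group. Of all genes 19.2% and 17.5% were then higher, against 2.7% and 2.6% with all libraries, and 0.364% and 0.503% were higher without replicate 1 of the knockdown, which gave the fewest nearest genes. Without control siRNA replicate 1 the counts were 15, 9, 15 and 9 (5.48%, 2.52%, 5.47% and 2.15% of all genes), and 12, 7, 9 and 8 of the original calls were shared. At an adjusted p under 0.05 all 4 counts were 0 (27 and 24 genes at an unadjusted p under 0.05). Library sizes alone gave 22 higher upon silencing *CHD4* and shifted the median of all genes to 0.10 and 0.11. With over 2 CPM required in every library, 11 of 156 tested nearest genes were higher and 6 lower upon silencing *TRPS1* (2.89% and 3.32% of all genes). Upon silencing *CHD4*, 9 of 158 were higher and 11 lower (2.50% and 3.10% of all genes). Of the original 15 and 12 higher calls, 9 and 6 were shared. With peaks over 100 kb only, 10 of 103 tested genes were higher (9.71%) and 1 lower (0.97%) upon silencing *TRPS1*, and 6 of 102 higher (5.88%) and 3 lower (2.94%) upon silencing *CHD4*. The likelihood ratio test gave 1 and 4 nearest genes at an adjusted p under 0.05, as did DESeq2.

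Replicate numbers were not taken to pair the samples: nothing in the labels ties them, and same-numbered deviations correlated at 0.051 (control and *TRPS1* siRNA) and 0.0095 (control and *CHD4* siRNA), although at 0.615 between the 2 knockdowns, whose same-numbered libraries thus deviated together. With the replicate block 19 genes were higher and 7 lower upon silencing *TRPS1* (5.73% and 3.71% of all genes), 18 and 11 upon silencing *CHD4* (4.51% and 2.93%), with 1 and 4 at an adjusted p under 0.05.

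The share of distal peaks was 17.8% at over 100 kb, 25.7% at over 50 kb from either gene end and 12.2% of 1749 peaks with RefSeq starts and bodies. Within 20 kb 32.0% had another distal peak, within 100 kb 42.7%.

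Of 1052 repeated values of named genes 901 kept direction and call, 99 lost and 19 gained a call, and 33, none called, changed sign. With library sizes alone these were *CHD4* (0.093), DSCAM-AS1 (0.036) and *REV1* (0.071) upon silencing *TRPS1*, and *GSE1* (0.032) and *SPRY2* (0.12) upon silencing *CHD4*; over 2 CPM in every library, *CHD4* (0.021) and *SPRY2* (0.042); without a filter, *DHRS2* (-0.0066) upon silencing *TRPS1*, and *FAT1* (-0.0055) and *TEKT4P2* (-0.0098) upon silencing *CHD4*. The causes were not tested. With each library left out in turn, values on both sides of 0 were seen upon silencing *TRPS1* for *CHD4* (-0.12 to 0.043), *DHRS2* (-0.23 to 0.22), DSCAM-AS1 (-0.31 to 0.16), *EDN1* (-0.51 to 0.022), *GSE1* (-0.45 to 0.048), *KCTD3* (-0.82 to 0.11), *LURAP1L* (-0.47 to 0.022) and *REV1* (-0.35 to 0.32), and upon silencing *CHD4* for *FAT1* (-0.31 to 0.29), *GSE1* (-0.38 to 0.17), *KCTD3* (-0.63 to 0.29), *REV1* (-0.10 to 0.57), *SPRY2* (-0.23 to 0.20), *TEKT4P2* (-0.25 to 0.31), *TRPS1* (-0.22 to 0.49) and the median of nearest genes (-0.075 to 0.50).

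No genome sequence was used here, so the motif shares over all peaks and their alternatives were not run, nor were the alternatives by peak score. Among 12921 and 12918 genes 0 passed the adjusted threshold in the quasi-likelihood test, 34 and 58 in the likelihood ratio test, 32 and 50 in DESeq2 and 32 and 44 with the replicate block.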
